A study of Homo sapiens with 6 samples.

Results

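IL-1b and TNFa were compared directly on 4 of the 6 arrays of the study, the 2 arrays of cells given IL-1b against the 2 of cells given TNFa, chosen by their sample titles and paired within a cell line. The cells were H358, an established human bronchioalveolar carcinoma line, in a line carrying GFP, which the labels call the control, and a line expressing YAP(5SA), a mutant of the Hippo pathway coactivator YAP that lacks inhibitory phosphorylation sites. Cells of each line were harvested 60 min after one of the cytokines was added. The other 2 arrays, GFP and YAP(5SA) cells given vehicle, did not enter the main comparison; they serve as a reference level, to choose a set of genes above vehicle, and in an alternative fit on all 6 arrays. Both cytokines are labelled 10 g/ml, which is not a credible concentration, so the doses and the relative potency of the treatments are unknown. Each condition was 1 array, nothing says how many clones stand behind a line, and the question asked was which inflammatory and early response genes favour one cytokine in both lines.

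IL-1b and TNFa reach many of the same genes through different receptors. IL-1b binds IL1R1 with its partner IL1RAP and signals through MYD88, the IRAK kinases and TRAF6, whereas TNFa binds TNFRSF1A and signals through TRADD, RIPK1 and TRAF2. Both routes end at the IKK kinases, which release NF-kB from its IkB inhibitors, and at the MAP kinases, which act on AP-1 and on serum response genes. In airway epithelial cells both cytokines are known for a rapid rise of neutrophil-attracting chemokines, followed by the feedback proteins that end the signal.

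Levels below are log2(intensity + 16), a scale whose floor is 4 and which understates differences of dim genes, and a difference is always IL-1b minus TNFa. Of 28264 probes, 25893 carried 1 gene, and the brightest probe stood for each of 19090 genes. The median intensity ran from 335.2 to 398.1 over the 6 arrays. The median difference over all genes was 0.26 for GFP cells and 0.00 for YAP(5SA) cells, so members of a gene list are counted against these medians. Brightness moved with the difference too: over 10 equal groups of probes by level, the median ran from 0.08 to 0.35 in the GFP line and from -0.05 to 0.28 in the YAP(5SA) line, where the dimmest group was highest; its part in the results was not tested. Of 10 epithelial markers, KRT18 (16.62 to 17.78 over the 6 arrays), KRT7 (15.07 to 16) and CDH1 (12.45 to 14.70) were bright, whereas KRT8, EPCAM, CLDN4, KRT19, CLDN7 and GRHL2 had medians from 5.27 to 8.45. The 8 alveolar and club cell markers were dim, with medians from 4.80 for SFTPA1 to 8.20 for SCGB1A1. Of 9 leukocyte markers, PTPRC (4.89 to 5.73) and CD3E (5.00 to 5.63) were near the floor, while CD3D (11.08 to 11.53), CD14 (9.96 to 11.82) and CD68 (10.34 to 10.85) were not. The summed intensity of the leukocyte markers was 8913 under IL-1b against 7949 under TNFa in the GFP line, and 5706 against 6533 in the YAP(5SA) line. That of the epithelial markers was higher under IL-1b in both lines, 199100 against 152900 and 311100 against 256100, as was that of the alveolar and club cell markers, 1037 against 763.3 and 967.8 against 834.8. Their part in the results was not tested.

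The promoters of the chemokines are shown because CXCL1, CXCL2 and CXCL3 read higher with IL-1b in both lines, while CXCL8 and TNFAIP3, NF-kB targets too, did not. Each window runs from 250 bases before to 50 bases after the gene's start, from RefSeq on GRCh38.p14, written in the direction of the gene. Of 123 genes named by rule, 97 had a window. Capitals mark letters of NF-kB motifs (the 10-base consensus, or the letters GGAATTTCC, which overlap in the CXCL1, CXCL2 and CXCL3 windows) and of the AP-1 motif TGANTCA, on either strand.
CXCL1, chr4:73869143-73869442, plus strand: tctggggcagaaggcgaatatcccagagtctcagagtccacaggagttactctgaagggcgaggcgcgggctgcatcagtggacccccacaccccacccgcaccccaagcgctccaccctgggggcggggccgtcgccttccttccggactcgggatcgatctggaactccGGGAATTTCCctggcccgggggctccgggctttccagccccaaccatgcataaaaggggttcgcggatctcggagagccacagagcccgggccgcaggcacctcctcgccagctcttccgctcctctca
CXCL2, chr4:74099146-74099445, minus strand: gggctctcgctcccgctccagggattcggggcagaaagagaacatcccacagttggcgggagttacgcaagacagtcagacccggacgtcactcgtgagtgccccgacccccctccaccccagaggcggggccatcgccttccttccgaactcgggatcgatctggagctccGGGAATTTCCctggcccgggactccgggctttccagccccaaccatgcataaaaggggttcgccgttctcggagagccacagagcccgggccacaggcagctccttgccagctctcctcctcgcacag
CXCL3, chr4:74038640-74038939, minus strand: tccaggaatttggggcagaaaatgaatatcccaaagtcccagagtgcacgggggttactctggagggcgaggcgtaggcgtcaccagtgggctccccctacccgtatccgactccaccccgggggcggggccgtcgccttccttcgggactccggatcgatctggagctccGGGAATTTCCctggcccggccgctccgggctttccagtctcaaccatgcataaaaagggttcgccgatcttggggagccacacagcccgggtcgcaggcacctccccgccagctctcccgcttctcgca
CXCL8, chr4:73740319-73740618, plus strand: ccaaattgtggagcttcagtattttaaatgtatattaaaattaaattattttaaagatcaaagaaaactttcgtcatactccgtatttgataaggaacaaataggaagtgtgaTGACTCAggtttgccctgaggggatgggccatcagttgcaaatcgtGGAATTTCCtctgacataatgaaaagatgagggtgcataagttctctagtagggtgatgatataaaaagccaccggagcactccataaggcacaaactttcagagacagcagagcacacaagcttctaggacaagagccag
IL6, chr7:22726950-22727249, plus strand: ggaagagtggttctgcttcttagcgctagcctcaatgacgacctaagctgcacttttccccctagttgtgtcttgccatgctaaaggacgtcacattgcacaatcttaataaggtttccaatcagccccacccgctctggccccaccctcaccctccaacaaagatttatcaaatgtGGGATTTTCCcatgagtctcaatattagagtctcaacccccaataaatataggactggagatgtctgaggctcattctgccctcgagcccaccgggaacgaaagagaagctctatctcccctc
TNFAIP3, chr6:137867009-137867308, plus strand: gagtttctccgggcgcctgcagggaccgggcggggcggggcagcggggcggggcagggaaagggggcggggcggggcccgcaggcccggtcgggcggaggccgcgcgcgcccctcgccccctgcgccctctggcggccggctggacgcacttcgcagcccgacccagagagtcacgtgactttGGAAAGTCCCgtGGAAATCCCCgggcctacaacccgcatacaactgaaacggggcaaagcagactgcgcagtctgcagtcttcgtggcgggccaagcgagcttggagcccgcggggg
One match to the 10-base NF-kB consensus began 79 bases before the start in CXCL1 and CXCL3, 78 bases in CXCL2 and 73 bases in IL6, and TNFAIP3 held 2 matches, at 67 and 55 bases. CXCL8 held GGAATTTCC at 91 bases and an AP-1 match at 137 bases. Among 35116 windows, 1.91% held the 10-base consensus, 0.461% GGAATTTCC and 7.71% TGANTCA. The windows of TNF, FOS, ZC3H12A and IRF1 held none of the letters searched, also not TGACGTCA (1.85% of windows) or the CArG box (1.29%), of which EGR1 held 2. Looser spellings of the NF-kB motif were not searched, so these windows may still hold an NF-kB site. A match describes letters only; CXCL3 and TNFAIP3, whose differences had opposite signs, both held the consensus.

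A fit across all probes separated the cytokines at almost no gene. Of 19090 genes, 1 was higher with IL-1b (0.00524%; 0.00386% of probes) and 0 were lower (0%) in limma at an adjusted p under 0.05. At an unadjusted p under 0.05, 1225 genes were higher and 963 lower. The p-values measure how far a difference varied between the 2 lines, with 1 residual degree of freedom per probe and 6.34 from the prior, not a spread between cultures. The counts depended on the scaling: with each array centred on its median 72 genes were called higher and 542 lower, with quantile normalization 29 and 292, and with the dimmest 40% of probes left out 60 and 296. Across these 3 settings, 23 genes were called higher with IL-1b in each and 259 lower in each. TNF, FOS, CXCL2, CXCL3, IL23A, ZC3H12A, SERPINA3, CCL4 and TNFAIP6 were among the 23. The rest of the 23 included ATP6V0E2, LINC03025, ATXN7L3B, CAMKK2, INSIG1, LRRK1, PAXX, RNF126 and TM9SF2, which are not cytokine genes. By size, without a test, 1 gene was at least 2-fold higher with IL-1b in both lines (0.00808% of 12371 genes past a filter on level) and 14 were at least 2-fold lower (0.113%). At 1.5-fold in both lines, 92 were higher (0.744%) and 357 lower (2.89%), and with no filter on level 1.53% and 2.10% of 19090 genes.

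The called gene was NXN, a thioredoxin-like oxidoreductase also called nucleoredoxin, and it is named here after its values were seen. It read 10.23 with IL-1b and 5.09 with TNFa in the GFP line, and 9.06 and 4.85 in the YAP(5SA) line, a mean difference of 4.67 ± 0.32 (SE in limma, 2 pairs, adjusted p = 0.0261). On the vehicle arrays it read 4.30 in the GFP line and 10.87 in the YAP(5SA) line. The low readings of its single probe lie near the floor of the scale, and the call was lost in the fit on all 6 arrays (adjusted p = 0.315).

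**Figure D1:**
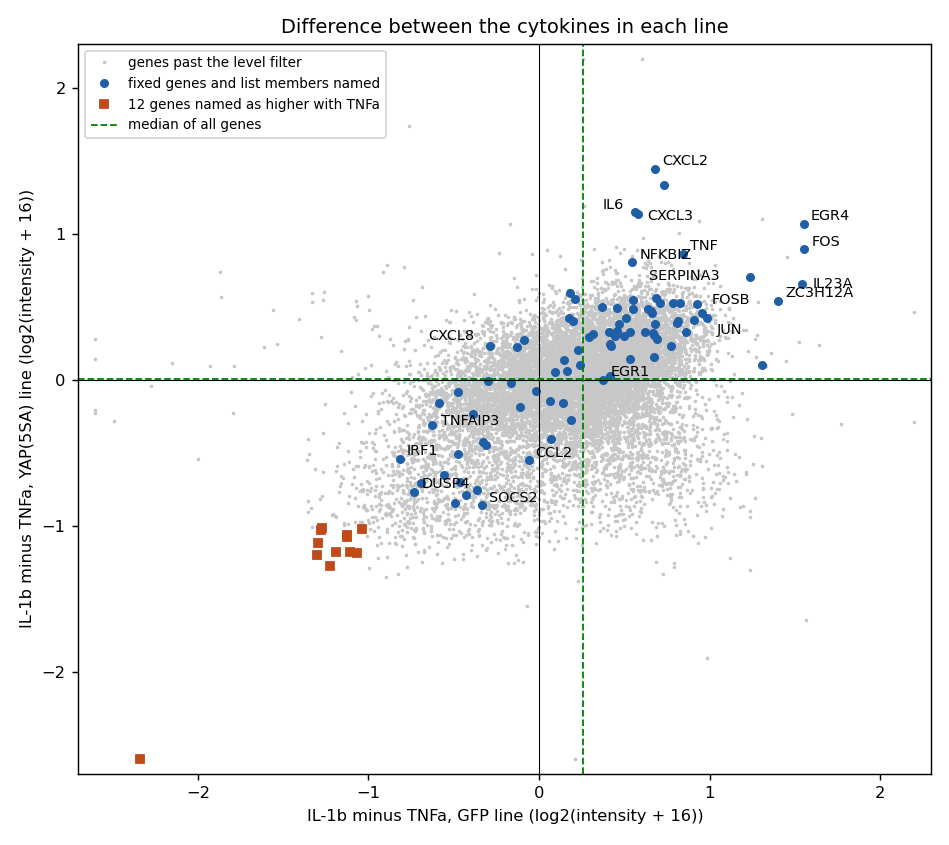
Each point is 1 gene: the difference IL-1b minus TNFa in the GFP line (x axis) and in the YAP(5SA) line (y axis), both on the log2(intensity + 16) scale, with points beyond the axes drawn at the edge. CXCL2, IL6, TNF, FOS and IL23A lie up and right of the medians of all genes (dashed, 0.26 and 0.00), IRF1 and DUSP4 lie down and left, and 12 genes named as higher with TNFa (squares) form the far lower left.

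Genes that read well above vehicle with the cytokines are described as a set, with no test. Chosen after the values were seen, 55 genes past the level filter lay at least 2-fold above vehicle in both lines, by the mean of the IL-1b and TNFa arrays. Some pass through 1 cytokine more than the other, and these are named after their values were seen. In the GFP line TNFa alone was under 2-fold above vehicle for JUN, IL23A, ARL14, IER3, CEBPD, LTA, MS4A1 and TNFRSF14. IL-1b alone was under 2-fold above vehicle in that line for SLC27A1, SSTR5, SORCS1, TP53AIP1 and RPRD2. RPRD2 read at the floor of the scale there with IL-1b, as with vehicle, but not with TNFa. In the YAP(5SA) line TNFa alone was under 2-fold above vehicle for BCL2A1, GEM, NFKBID, JUNB, ARL14 and LTA, and IL-1b alone for SORCS1. More genes thus entered the set through IL-1b than through TNFa, so the shares of the 55 below partly follow from how it was chosen. In 36 of the 55 (65.5%) IL-1b read higher in both lines and in 8 (14.5%) TNFa did, where among all 12371 genes past the filter 39.6% and 23.5% did. Against the medians of all genes, 28 (50.9%) lay above in both lines and 9 (16.4%) below, where 29.6% and 34.9% of the 12371 genes did. Their median differences were 0.43 (GFP) and 0.18 (YAP(5SA)), against 0.23 and -0.02 for the 12371. In the 38 genes that read at least 2-fold above vehicle with each cytokine in both lines, IL-1b read higher in both lines in 27 (71.1%) and TNFa in 5 (13.2%). The set includes C1QBP and ING4, whose vehicle readings lay near the floor, at 4.37 and 5.24, and 4.55 and 4.59. Whether such genes were induced was not tested.

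TNF, IL6, IL23A, CXCL1, CXCL2 and CXCL3 read higher with IL-1b in both lines, though none of them passed the test. Of 16 chemokines, 7 lay above the medians of all genes in both lines and 4 below (30.0% of all genes lay above in both and 30.0% below). None passed the limma test in either direction, and the smallest adjusted p was 0.36. CXCL2, a neutrophil attractant, read 17.54 with IL-1b and 16.86 with TNFa in the GFP line, and 17.67 and 16.23 in the YAP(5SA) line. Both IL-1b arrays lay above both TNFa arrays, and all 4 lay above the vehicle readings of 13.54 and 13.35. Averaged over the lines the difference was 1.06 ± 0.25 (SE in limma, 2 pairs, adjusted p = 0.36), and the adjusted p ran from 3.13e-05 to 0.913 over the alternatives. All such ranges leave out the fits that drop 1 array, in which the difference of CXCL2 ran from 0.76 to 1.37. CXCL3, a close relative, read 14.55 and 13.96 in the GFP line and 13.27 and 12.14 in the YAP(5SA) line, differences of 0.58 and 1.13. CXCL1 differed by 0.41 and 0.33 through its brightest probe, which read up to 18.63, near the top of the scale, and by 0.85 and 0.87 through a dimmer one. Whether the probes tell these close paralogs apart is not known here. CCL28, a mucosal chemokine, differed by 0.73 and 1.33 at levels between 4.18 and 6.15, close to the floor.

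The remaining named chemokines had both signs. CXCL8, the main neutrophil attractant of the airway, read 16.35 with IL-1b and 16.64 with TNFa in the GFP line, and 14.82 and 14.59 in the YAP(5SA) line, so the lines had opposite signs. CCL20, which attracts dendritic and T cells, differed by 0.21 and 0.55, the first of which lies under the median of all genes. CCL2, a monocyte attractant, read lower with IL-1b in both lines, by -0.06 and -0.55, and its second probe gave -0.40 and -0.75. The CXCR3 ligands CXCL10 and CXCL11, known as interferon-induced T cell attractants and named after their values were seen, gave -0.30 and -0.38, and -0.51 and -0.30. CCL4, a macrophage chemokine outside the list, was among the 12 genes named for the largest difference in both lines. It read 9.28 with IL-1b and 8.34 with TNFa in the GFP line, and 10.73 and 9.65 in the YAP(5SA) line.

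Of 20 interleukins, TNF family cytokines and colony-stimulating factors, 8 lay above the medians in both lines and 4 below, and none passed the test. TNF itself, the ligand given to the other cells, read 12.95 with IL-1b and 12.11 with TNFa in the GFP line, and 11.70 and 10.84 in the YAP(5SA) line. With vehicle it read 6.63 and 6.76, and the IL-1b array was the higher one in each line by nearly the same amount, 0.84 and 0.86. Averaged over the lines the difference was 0.85 ± 0.18 (SE in limma, 2 pairs, adjusted p = 0.358), and the adjusted p ran from 0.00196 to 0.913 over the alternatives. IL23A, the subunit particular to interleukin 23, read 12.43 and 10.89 in the GFP line and 11.90 and 11.25 in the YAP(5SA) line, against 10.04 and 9.77 with vehicle. Both its IL-1b arrays lay above both TNFa arrays. IL6, the acute phase cytokine, read 9.78 and 9.21 in the GFP line and 13.22 and 12.07 in the YAP(5SA) line. With vehicle IL6 read 6.26 and 9.33, and its lines were further apart than the 2 cytokines. IL15, a lymphocyte growth factor, read lower with IL-1b, by -0.37 and -0.75. CSF3, a granulocyte growth factor, split, with 0.42 in the GFP line and -1.06 in the YAP(5SA) line.

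**Figure D2:**
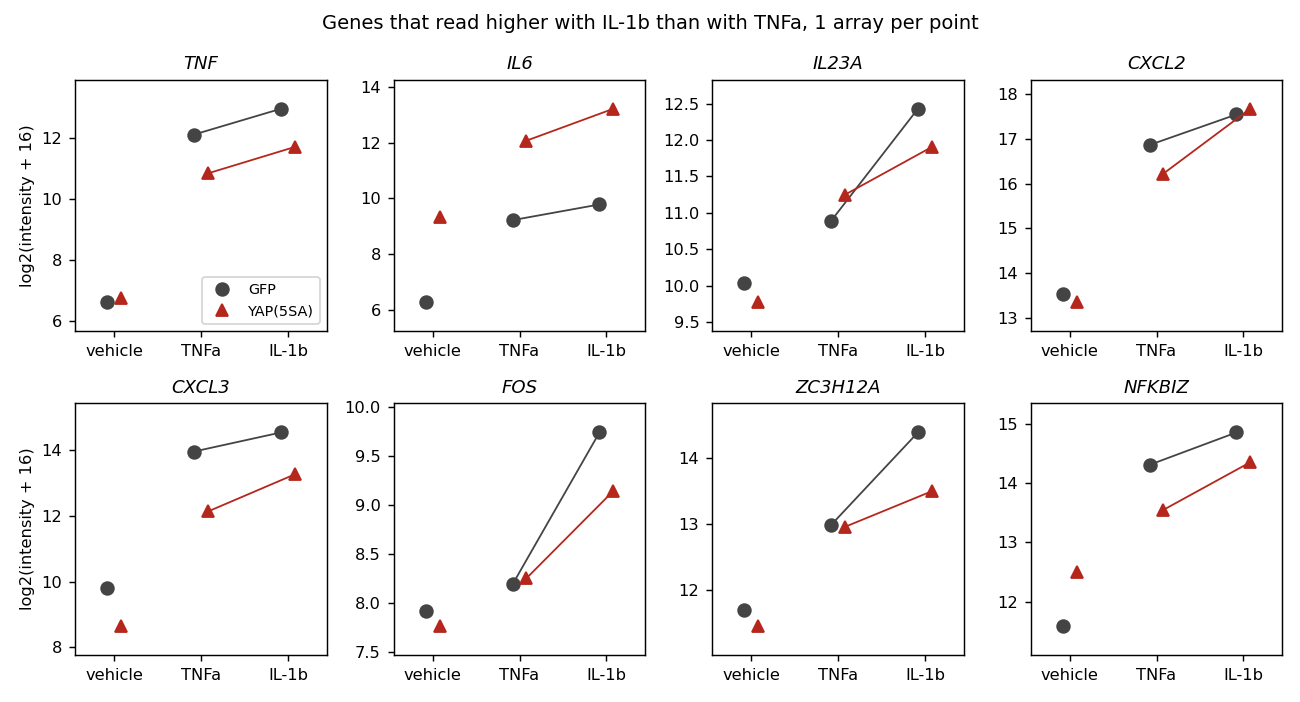
Level of 8 genes on the log2(intensity + 16) axis for vehicle, TNFa and IL-1b in the GFP line (circles) and the YAP(5SA) line (triangles), 1 array per point; lines join the TNFa and IL-1b arrays of a line. In all 16 pairs the IL-1b array is the higher, by 0.54 to 1.56, and within each line the vehicle array lies below both cytokines.

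The 2 receptor pathways held members of both signs, and none passed the test. Of 17 IL-1 receptor pathway genes 6 lay above the medians in both lines and 4 below. PELI1, a ubiquitin ligase of that pathway, read lower with IL-1b, 8.37 against 9.07 in the GFP line and 6.49 against 7.2 in the YAP(5SA) line. The other named members were higher: SIGIRR, an inhibitory receptor, by 0.47 and 0.38, TAB3, an adaptor of the kinase TAK1, by 0.67 and 0.32, and PELI2 by 0.67 and 0.31. Of 26 genes of the TNF receptor pathway and TNF superfamily, 4 lay above and 10 below. SHARPIN, a subunit of the linear ubiquitin ligase that acts at the TNF receptor, read 11.83 with IL-1b and 12.32 with TNFa in the GFP line, and 11.26 and 12.11 in the YAP(5SA) line, so each IL-1b reading lay under both TNFa readings. TNFRSF11B, the decoy receptor osteoprotegerin, gave -0.31 and -0.45. The death receptor FAS gave 0.55 and 0.48, and TNFSF18, under the level filter, gave 0.42 and 0.25. None of these genes passed the test.

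NF-kB subunits and their feedback inhibitors held members of both signs, and none passed the test. Of 12 subunits and IKK kinases 3 lay above the medians in both lines and 2 below. The subunit REL gave 0.18 and 0.60, NFKB2 gave 0.24 and 0.10, the kinase IKBKE 0.29 and 0.29, and IKBKB -0.59 and -0.16. Dimmer second probes gave -0.57 and -0.64 for NFKB2, and -0.71 and 0.08 for IKBKE. MAP3K8, a kinase that links IKK to ERK, gave 0.42 and 0.03. Of 15 inhibitors and feedback genes 3 lay above and 5 below. NFKBIA, the IkB protein that NF-kB induces first, read 18.66 with IL-1b and 18.57 with TNFa in the GFP line, and 18.66 and 18.61 in the YAP(5SA) line. Averaged over the lines the difference was 0.07 ± 0.23 (SE in limma, 2 pairs), which leaves room for a difference of either sign. NFKBIA lies near the brightest gene of each array (18.79 to 19.06), and whether such bright probes still resolve a difference was not tested. TNFAIP3, the deubiquitinase A20, read 16.07 and 16.18 in the GFP line and 15.39 and 15.58 in the YAP(5SA) line. NFKBIZ, an IkB-like cofactor that NF-kB needs at a subset of its targets such as IL6, read higher with IL-1b in both lines. NFKBIZ read 14.86 and 14.31 in the GFP line and 14.36 and 13.55 in the YAP(5SA) line, a mean difference of 0.68 ± 0.19 (SE in limma, 2 pairs, adjusted p = 0.368; 0.0145 to 0.913 over the alternatives). TNFAIP2 gave 0.64 and 0.48, TNIP2 0.23 and 0.20, and TNIP3, under the level filter, 0.20 and 0.40.

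Among 13 mRNA decay factors, 6 lay above the medians in both lines and 4 below. ZC3H12A, the ribonuclease Regnase-1 that degrades cytokine mRNAs, read 14.38 with IL-1b and 12.98 with TNFa in the GFP line, and 13.49 and 12.96 in the YAP(5SA) line. Both IL-1b arrays lay above both TNFa arrays. With vehicle ZC3H12A read 11.69 and 11.46, and its mean difference was 0.97 ± 0.24 (SE in limma, 2 pairs, adjusted p = 0.363; 0.000121 to 0.913 over the alternatives). ZFP36, the decay factor tristetraprolin, gave 0.69 and 0.28. Probes of the roquin genes disagreed within each gene. RC3H1 gave 0.66 and 0.46, and its other probes gave 0.63 and 0.59, and 0.10 and -0.50. RC3H2 gave -0.43 and -0.79, and its other probe gave 0.50 and 0.53. TUT1, an RNA uridylyltransferase, gave -0.46 and -0.70 and had a reading of 6.14 on the GFP vehicle array against at least 12.04 on the other 5.

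The AP-1 family had the largest share of members above the medians of the 18 inflammatory, signalling and early response lists. Of 13 members 9 lay above in both lines and 2 below, and the list's median differences were 0.58 (GFP) and 0.26 (YAP(5SA)). FOS, an immediate early gene whose product pairs with JUN, read 9.74 with IL-1b and 8.19 with TNFa in the GFP line, and 9.14 and 8.25 in the YAP(5SA) line. Its vehicle readings of 7.92 and 7.76 lay close under the TNFa readings, and both IL-1b arrays lay above all others. Averaged over the lines the difference was 1.22 ± 0.26 (SE in limma, 2 pairs, adjusted p = 0.358; 0.000324 to 0.913 over the alternatives). FOSB differed by 0.96 and 0.46, JUN by 0.99 and 0.42 and the small Maf factor MAFF, under the level filter, by 0.68 and 0.56. FOSL1 gave -0.23 and -0.72. ATF3, a stress-induced repressor, gave -0.13 and 0.23.

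The other early genes held members of both signs. Of 27 measured, 8 lay above the medians in both lines and 12 below. EGR4, a zinc finger factor of the EGR family, read 8.27 with IL-1b and 6.72 with TNFa in the GFP line, and 7.94 and 6.87 in the YAP(5SA) line. Its readings lie near or below the level filter, and both IL-1b arrays were above both TNFa arrays. The nuclear receptors NR4A3 and NR4A2 gave 0.81 and 0.40, and 0.68 and 0.38, but another probe of NR4A3 gave -0.34 and -0.21 and another of NR4A2 gave -0.07 and -0.06. EGR1 gave 0.38 and 0.00, IER3 0.45 and 0.30, NR4A1 -0.16 and -0.02, and IER2 0.06 and -0.15. Of 10 Kruppel-like factors 3 lay above and 5 below. KLF5, an epithelial regulator, gave 0.83 and 0.52, KLF2 0.86 and 0.33, KLF7 0.17 and 0.42 and KLF11 0.53 and 0.14. A dimmer second probe of KLF11 gave -1.10 and -0.42, and the other probes of KLF7 gave opposite signs in the lines.

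MAP kinase phosphatases and ERK output genes held members of both signs, and none passed the test. Of 10 phosphatases 4 lay above the medians in both lines and 3 below. DUSP4, a nuclear phosphatase of ERK, read 14.22 with IL-1b and 14.95 with TNFa in the GFP line, and 12.69 and 13.46 in the YAP(5SA) line. Averaged over the lines the difference was -0.75 ± 0.18 (SE in limma, 2 pairs, adjusted p = 0.362; 0.000967 to 0.926 over the alternatives), and a dim second probe gave 0.22 and 0.30. DUSP14 gave -0.47 and -0.51, whereas DUSP10, which acts on p38 and JNK, gave 0.91 and 0.41, DUSP5 0.62 and 0.33 and DUSP1 0.77 and 0.23. Of 13 ERK output genes 2 lay above and 6 below, with list medians of 0.07 (GFP) and 0.01 (YAP(5SA)). The factor ETV4 gave -0.56 and -0.65, while the ERK inhibitors SPRY2 and SPRY4 gave 0.71 and 0.53, and 0.15 and 0.14, and the EGFR inhibitor ERRFI1 gave 0.50 and 0.30.

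Among growth factor ligands and acute phase genes none passed the test. Of 14 growth factor ligands 6 lay above the medians in both lines and 2 below, with the EGFR ligand HBEGF at 0.81 and 0.39, PDGFB at 0.37 and 0.50 and PDGFA at -0.63 and -0.31. NRG1, a ligand of ERBB receptors, gave 0.46 and 0.33, but its 6 probes did not agree, and 1 gave -0.74 and -0.76. Of 18 adhesion and acute phase genes 9 lay above and 3 below, and the list's median differences were 0.40 (GFP) and 0.24 (YAP(5SA)). SERPINA3, the protease inhibitor antichymotrypsin, read 12.08 with IL-1b and 10.85 with TNFa in the GFP line, and 8.52 and 7.81 in the YAP(5SA) line. The lines were further apart than the cytokines, yet IL-1b was the higher in each, with a mean difference of 0.97 ± 0.23 (SE in limma, 2 pairs, adjusted p = 0.36; 0.00207 to 0.958 over the alternatives). Complement factor CFB gave 0.55 and 0.55, the elastase inhibitor PI3 0.92 and 0.52, and the adhesion molecule ICAM1 0.46 and 0.49. Haptoglobin HP, under the level filter, gave 0.66 and 0.47. PTX3, a soluble pattern recognition protein, gave -0.30 and -0.01. TNFAIP6, a hyaluronan-binding protein outside the lists, read 9.28 with IL-1b and 7.83 with TNFa in the GFP line, and 8.0 and 7.16 in the YAP(5SA) line.

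**Figure D3:**
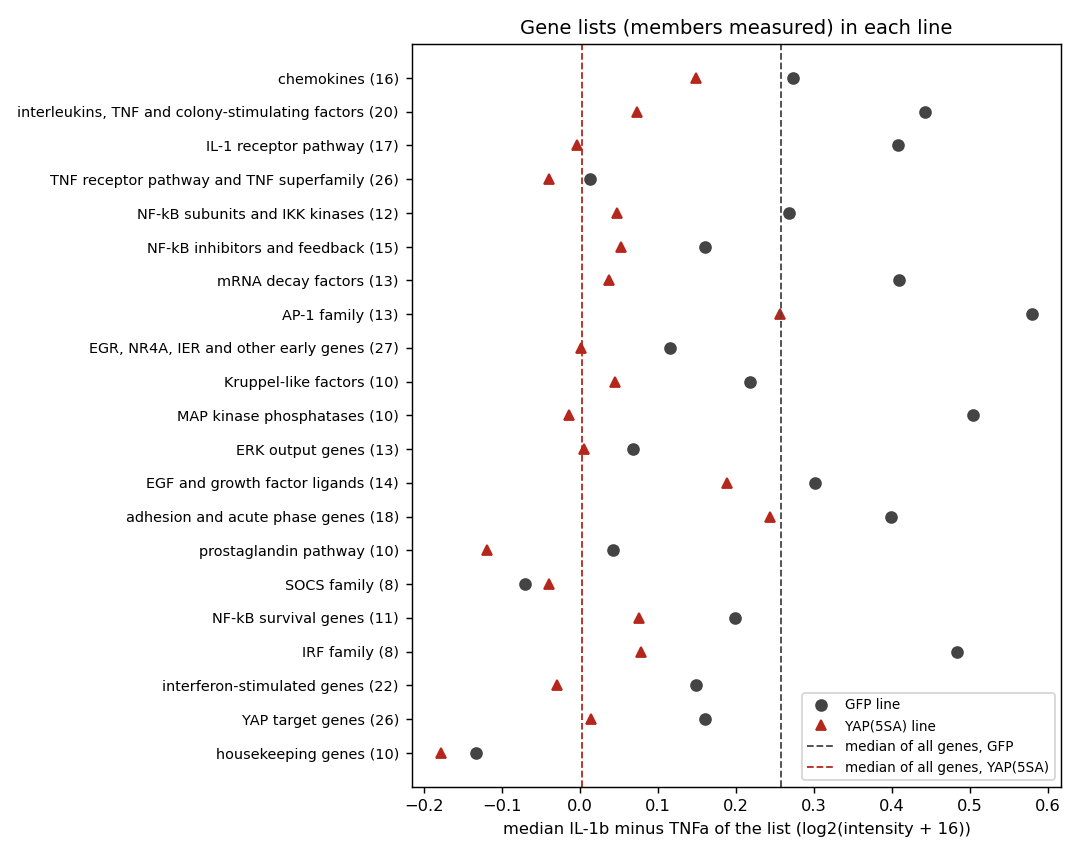
Median IL-1b minus TNFa of each gene list (x axis, log2(intensity + 16)) in the GFP line (circles) and the YAP(5SA) line (triangles), with the number of measured members in brackets and the medians of all genes dashed. The AP-1 list lies at 0.58 and 0.26, each right of its own line's median, and the SOCS list at -0.07 and -0.04, each left of it.

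Among SOCS and prostaglandin genes none passed the test. Of 8 SOCS family genes, which encode inhibitors of JAK-STAT signalling, 0 lay above the medians in both lines and 5 below. SOCS2 read 12.48 with IL-1b and 12.81 with TNFa in the GFP line, and 11.90 and 12.76 in the YAP(5SA) line, and SOCS5 gave -0.02 and -0.08, though its other probe gave 0.46 and 0.06. SOCS3 gave 0.14 and -0.16, and -0.87 and 0.30 through its other probe. Of 10 prostaglandin pathway genes 1 lay above and 5 below, with the phospholipase PLA2G4A at -0.38 and -0.24, PTGES2 at -0.47 and -0.08, HPGD, which breaks prostaglandins down, at 0.32 and 0.32 (0.20 and -0.18 through its other probe), and PTGES at 0.17 and 0.06. PTGS2, the inducible cyclooxygenase, read 17.31 with IL-1b and 17.40 with TNFa in the GFP line and 13.70 and 13.42 in the YAP(5SA) line. Of 11 NF-kB survival genes 4 lay above and 2 below: the BCL2 relative BCL2A1 gave 0.51 and 0.42, the pro-apoptotic BBC3 0.79 and 0.53, and BCL2L1 -0.33 and -0.43.

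IRF1, a transcription factor induced by NF-kB and by interferon, read lower with IL-1b through its brightest probe. That probe gave 14.70 with IL-1b and 15.51 with TNFa in the GFP line, and 13.75 and 14.29 in the YAP(5SA) line, a mean difference of -0.68 ± 0.19 (SE in limma, 2 pairs, adjusted p = 0.368; 0.00291 to 0.914 over the alternatives). A second probe of IRF1 gave 0.55 in the GFP line and -0.56 in the YAP(5SA) line, so the direction was shared by both probes in the YAP(5SA) line alone. Of 8 IRF genes 5 lay above the medians in both lines and 1, IRF1, below. IRF5 gave 0.53 and 0.33, IRF3 0.67 and 0.15, and IRF8, at the floor on both TNFa arrays, 1.31 and 0.10. Of 22 interferon-stimulated genes 5 lay above and 9 below, and of 26 YAP targets 8 above and 10 below; CCN1 gave 0.07 and -0.41, CCN2 0.18 and -0.28, and YAP1 0.42 and 0.23. Of 10 housekeeping genes 3 lay above and 5 below, with medians of -0.13 (GFP) and -0.18 (YAP(5SA)), lower than those of the SOCS list (-0.07 and -0.04).

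The genes with the largest difference in favour of TNFa were not cytokine genes. The 12 named by rule for the largest difference in both lines were IZUMO3, ANP32E, HNRNPH2, PPP1R12A, PRDM10, WASL, OR6C4, SLC19A2, MICA, TAP2, CTNNAL1 and TSPAN3. With IL-1b all 12 read below vehicle in both lines. With TNFa all 12 read below vehicle in the YAP(5SA) line, and all but IZUMO3 read above it in the GFP line. ANP32E, a chaperone of the histone variant H2A.Z, read 9.58 with IL-1b and 10.81 with TNFa in the GFP line, and 8.68 and 9.96 in the YAP(5SA) line, with vehicle at 10.00 and 10.07. Both IL-1b arrays lay below all the others. HNRNPH2, a splicing factor, gave -1.30 and -1.20, PPP1R12A, a subunit of myosin phosphatase, -1.19 and -1.18, and WASL, an activator of actin branching, -1.11 and -1.18. TAP2, a subunit of the peptide transporter of antigen presentation, read 8.53 and 9.81 in the GFP line and 8.78 and 9.81 in the YAP(5SA) line. MICA, a stress-induced ligand of the NK cell receptor NKG2D, gave -1.13 and -1.06. IZUMO3 had the widest gap, with 9.12 and 8.01 under IL-1b and 11.46 and 12.02 under TNFa, through a single probe, and its call in the fit on all 6 arrays was the 1 gene lower there (adjusted p = 0.000665). The remaining 5, from PRDM10 at -1.29 in the GFP line to TSPAN3 at -1.02 in the YAP(5SA) line, lay within that range in each line. The dimmer second probes of TAP2 and TSPAN3 did not share the difference, with 0.69 and -0.02, and 0.49 and 0.00.

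The sets of genes apart by size were also set beside vehicle. For the 357 genes at least 1.5-fold lower with IL-1b in both lines, the median difference from vehicle was -0.39 with IL-1b and 0.43 with TNFa in the GFP line, and -1.14 and -0.33 in the YAP(5SA) line. For the 92 genes higher with IL-1b these medians were 0.24 and -0.47 in the GFP line and 0.84 and 0.19 in the YAP(5SA) line. For all 12371 genes past the filter they were 0.02 and -0.18 in the GFP line and 0.05 and 0.09 in the YAP(5SA) line. Both sets were chosen on the difference between the cytokines, so the gap itself is no result. Their median levels were 10.83 and 9.98, against 10.77 for all 12371 genes.

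**Figure D4:**
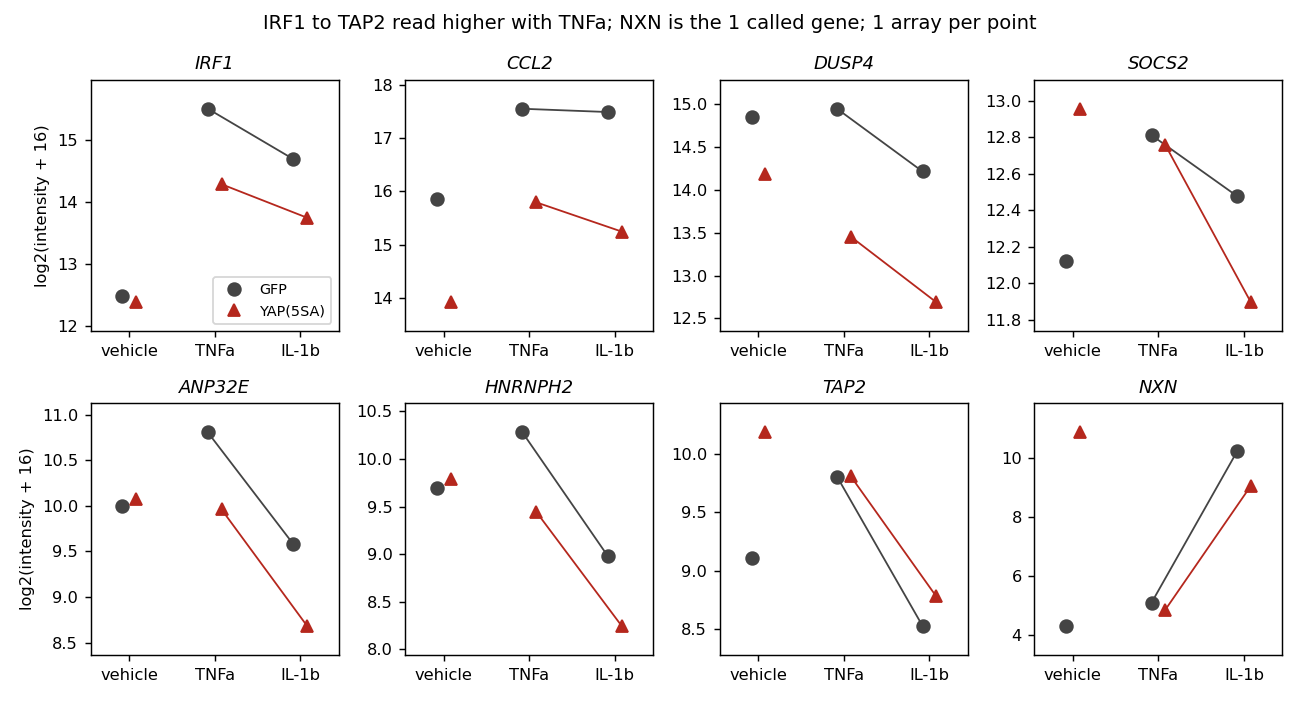
Level of 8 genes on the log2(intensity + 16) axis for vehicle, TNFa and IL-1b in the GFP line (circles) and the YAP(5SA) line (triangles), 1 array per point; lines join the TNFa and IL-1b arrays of a line. The first 7 genes lie lower with IL-1b in both lines, by 0.06 (CCL2, GFP) to 1.30; NXN lies higher, and its 2 vehicle arrays are at 4.30 and 10.87.

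On the IL-1b side the 12 genes named for the largest difference in both lines mixed cytokine genes with others. CCL4, FOS, TNF and TNFAIP6 are described above. LINC03025, a long non-coding RNA, read 10.57 with IL-1b and 9.27 with TNFa in the GFP line, and 8.76 and 7.66 in the YAP(5SA) line. Its vehicle readings were 5.87 and 6.24. Among genes past the level filter it was the 1 gene at least 2-fold higher with IL-1b in both lines. ATP6V0E2, a proton pump subunit, gave 1.03 and 0.79, though its second probe gave -0.06 and 0.25. The DNA repair protein MGMT gave 0.77 and 0.79, and the matricellular SMOC1 0.79 and 0.76, though the second probe of SMOC1 gave -0.04 and -0.29. DAGLA, NRL, CHD5 and THSD7A gave between 0.75 and 1.01 in each line, and the second probes of NRL and THSD7A gave opposite signs in the 2 lines. THSD7A read 12.97 with IL-1b and 12.04 with TNFa in the GFP line, but a dim 6.30 and 5.55 in the YAP(5SA) line. Over the fits that left out 1 array the difference of THSD7A ran from 0.063 to 0.92.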

How the data were processed

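The authors deposited 1 table of linear probe intensities per the labels' 1-colour Cy5 arrays, with some values below 0; the scanner, background correction and scaling were not given in the sources used here. Levels are log2(intensity + 16), with 0 in place of any value below 0, and no normalization was added. All 25893 probes with 1 gene in the platform annotation entered the fit (0 had several genes and 2371 none); all matched RefSeq (GRCh38.p14) for current symbols. IL-1b minus TNFa was fitted on 4 arrays with line as a block in limma 3.58.1 (R 4.3.3; lmFit, eBayes with an intensity trend) with Benjamini-Hochberg adjustment over all probes at 0.05, after tests on simulated data. Counts by size used genes above the 40th percentile of level. Of 370 genes in 26 lists, 17 were not analysed here, nor was BIRC3 of the 32 genes fixed by name. The others named were the 12 per direction with the largest smaller-of-both-lines difference, up to 4 same-sign members of each of 18 lists, and the 6 per direction with opposite signs in the lines; CXCL10, CXCL11, CSF3, FOSL1 and marker genes were added after their values were seen. The members, lists and rules were chosen with earlier results of these data known. Nothing states separate cultures, so p-values cover only the spread between these arrays, whose small number limits the precision. A permutation of 2 pairs cannot go below an exact p of 0.5. Alternatives were other scalings, filters, pseudocounts, probe rules, eBayes settings and arrays.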

Additional observations from a re-analysis of the deposited data

Results flagged for a closer look

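In the genes below the sign of IL-1b minus TNFa was opposite in the GFP and YAP(5SA) lines. With 1 array per condition the difference between the lines was not tested. Each gene is followed by its difference in the GFP line, its difference in the YAP(5SA) line, and the second minus the first.

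Among the genes fixed by name these were ATF3 (-0.13 and 0.23, a gap of 0.35), CCN1 (0.07 and -0.41, a gap of -0.48), CCN2 (0.18 and -0.28, a gap of -0.46), CXCL8 (-0.29 and 0.23, a gap of 0.52), IER2 (0.06 and -0.15, a gap of -0.21), PTGS2 (-0.09 and 0.27, a gap of 0.36) and SOCS3 (0.14 and -0.16, a gap of -0.30).

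The 6 genes with the largest opposed differences that were higher with IL-1b in the GFP line were DLG1-AS1 (1.56 and -1.64, a gap of -3.21), FBP1 (1.24 and -1.30, a gap of -2.54), PYY2 (1.12 and -1.22, a gap of -2.34), GSTA5 (1.01 and -1.01, a gap of -2.02), HOXB8 (0.98 and -1.90, a gap of -2.89) and POU6F1 (0.97 and -1.08, a gap of -2.05). The 6 in the other direction were OR8B3 (-0.89 and 0.78, a gap of 1.67), FAM209A (-0.79 and 0.78, a gap of 1.57), ENO3 (-0.76 and 1.74, a gap of 2.501), STAU2-AS1 (-1.87 and 0.74, a gap of 2.61), CAPN6 (-0.91 and 0.74, a gap of 1.66) and LCE1E (-0.68 and 0.64, a gap of 1.32). For SOCS3, IER2, POU6F1, OR8B3, FAM209A and LCE1E another probe of the gene did not share the pattern. The other probe of SOCS3 gave -0.87 and 0.30, and that of IER2 gave -0.04 and -0.34. Of 4567 genes past the level filter with opposite signs, 4 differed by at least 2-fold in each line.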

How the results depend on the processing

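The count of genes called was set by scaling and filter; no single alternative's count is preferred here. Against 1 higher and 0 lower, the counts were 72 and 542 with each array centred on its median, 29 and 292 with quantile normalization, 60 and 296 with the dimmest 40% of probes left out, and 142 and 372 with the dimmest 60% left out. They were 0 and 1 with all 6 arrays, and 0 higher with a pseudocount of 1, without the intensity trend and without the line block. Chosen after seeing the data, centring with the dimmest 40% left out gave 288 and 653, and cyclic loess 194 and 750; the set of 38 genes above vehicle with each cytokine was added then too. In the 6-array fit, leaving out 1 array gave 1 to 869 higher and 0 to 460 lower, the highest of both without the YAP(5SA) TNFa array. The 1 and 0 came from leaving out either vehicle array. Such a fit could not differ from the main one, because the other vehicle array is then fitted exactly. These 2 fits therefore say nothing about how stable the counts are. No paired analysis by replicate number was possible because the labels number no replicates; the line was the block.

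Genes at least 2-fold apart in both lines were 1 higher and 14 lower. They were 0 and 5 with the dimmest 40% left out, 0 and 4 with 60%, 0 and 8 with a pseudocount of 64, 0 higher with the mean of all probes, 0 and 9 with centring and the dimmest 40% left out, 92 and 357 at 1.5-fold, and 16 and 22 with no level filter. The stricter filters raise the level that a gene must pass. In the GFP line alone 141 were higher and 117 lower, and in the YAP(5SA) line alone 12 and 179.

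Signs turned, in values that had not passed the test, for ATF3 with centring (-0.010) and cyclic loess (-0.010), NFKBIA with quantile normalization (-0.0055) and cyclic loess (-0.029), and, with probes of 1 gene averaged, for IKBKE (-0.011), NFKB2 (-0.22), KLF11 (-0.21), SOCS5 (0.11), POU6F1 (0.34), OR8B3 (0.20), FAM209A (0.34) and LCE1E (0.23); the last uses other probes, and the cause was otherwise not tested. Over the 6 fits that left out 1 array, the sign turned for ATF3 (-0.33 to 0.43), CCN1 (-0.48 to 0.14), CCN2 (-0.27 to 0.17), CXCL8 (-0.34 to 0.28), EGR1 (-0.49 to 0.87), IER2 (-0.30 to 0.21), NR4A1 (-0.41 to 0.22), PTGS2 (-0.22 to 0.41), SOCS3 (-0.26 to 0.24), TNFAIP3 (-0.52 to 0.23), TUT1 (-2.38 to 1.21), RC3H2 (-0.93 to 0.36), KLF11 (-0.044 to 0.72), NRG1 (-0.16 to 0.55), PTGES (-0.12 to 0.34), DLG1-AS1 (-1.34 to 1.26), FBP1 (-1.14 to 1.07), PYY2 (-1.02 to 0.92), GSTA5 (-0.83 to 0.82), HOXB8 (-1.64 to 0.72), POU6F1 (-0.88 to 0.77), OR8B3 (-0.71 to 0.61), FAM209A (-0.72 to 0.53), ENO3 (-1.03 to 2.02), STAU2-AS1 (-1.63 to 0.49), CAPN6 (-0.73 to 0.56), LCE1E (-0.69 to 0.64); NFKBIA (-0.0028 to 0.15), IKBKB (-0.75 to 0.0016). The first 9 genes named as called in 3 settings kept their direction in these fits but not their size. They were chosen on the same arrays, so this is no separate support. The fits without a vehicle array could not differ from the main one. The ranges were 0.82 to 1.20 for CCL4, 0.95 to 1.501 for FOS, 0.50 to 1.21 for TNF and 0.58 to 1.72 for TNFAIP6. For CXCL2 the range was 0.76 to 1.37 and for CXCL3 0.55 to 1.17. ZC3H12A ran from 0.59 to 1.35, IL23A from 0.72 to 1.47 and SERPINA3 from 0.39 to 1.55. Signal over background is not known here, so dim genes such as CCL28, EGR4 and IRF8 have uncertain differences. The same holds for HP, TNFSF18, TNIP3, MAFF and PELI1, which lay under the level filter.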
